A study of Arabidopsis thaliana with 6 samples.

Results

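The cytosolic 40S ribosomal protein genes of *Arabidopsis thaliana* described here are 57 genes of the 21 families RPSa, RPS2, RPS3, RPS3a to RPS15, RPS15a and RPS16 to RPS19. They were found by gene identifier, without a filter on their measured values, among the 27444 genes of the deposited tables, and all 57 were listed. The set itself was chosen with earlier results of these data known. Further RPS2, RPS15 and RPS15a genes lie outside the 57, are left out of the family sums and are given below. Paralogs carry the letters customary for Arabidopsis, and RefSeq gives other letters to some of them, so each gene is given with its identifier. Transcript levels are in FPKM, read counts scaled by exon length and by the total of the library.

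RNA from whole seedlings was sequenced in 3 libraries of *lon1-2atg5-1* and 3 of *atg5-1*, stated to be biological triplicates. Both genotypes are in the Col-0 background, carry the T-DNA allele *atg5-1* in the autophagy gene ATG5 and were grown in long days without treatment, and *lon1-2atg5-1* also carries the T-DNA allele *lon1-2* in the gene of the mitochondrial protease LON1. The deposited description gives an age of 7 days, whereas the methods of the study give an older age. Libraries of *Col-0* and of the single *lon1-2* mutant were not used here, each allele is represented by 1 insertion line, and *atg5-1* is itself a mutant, so the comparison is of *lon1-2* in plants that all carry *atg5-1*.

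LON1 (AT5G26860) had 196, 126 and 95 counts in *lon1-2atg5-1*, against 671, 528 and 602 in *atg5-1*, which fits the labels. ATG5 (AT5G17290), mutated in both, had 1319, 930 and 636 counts in *lon1-2atg5-1*, against 516, 520 and 436 in *atg5-1*. Totals were 21964283 to 23929531 counts in *lon1-2atg5-1* and 22154558 to 22972992 in *atg5-1*. Of the 27444 genes, 20157 passed the filter on low counts and were tested with edgeR's quasi-likelihood test.

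The small ribosomal subunit binds the mRNA, holds the decoding site and, with initiation factors, scans for the start codon. It is built in the nucleolus and cytoplasm from one rRNA and a set of proteins that are each needed in one copy, so the genes of these proteins are usually expressed together. In Arabidopsis every family below has several paralogs, and mutants of single 40S paralogs are known for pointed first leaves, slow growth or arrested embryos. Transcription of plant ribosomal protein genes has been linked to 2 short promoter motifs, the telo box and site II.

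As a set, the 40S genes were higher in *lon1-2atg5-1*. Together the 57 genes took 0.860%, 0.813% and 0.757% of all counts in the *lon1-2atg5-1* libraries, against 0.603%, 0.539% and 0.552% in the *atg5-1* libraries. Their summed level was 7947, 7517 and 6995 FPKM in *lon1-2atg5-1* and 5592, 5001 and 5117 FPKM in *atg5-1*, so that the lowest *lon1-2atg5-1* library lay above the highest *atg5-1* library. In whole seedlings, a larger share of cells that express these genes and more of their RNA per cell cannot be told apart.

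Of the 57 genes, 54 passed the filter and 3 did not. All 54 had a positive log2 fold change, 52 of them (96.3%) rose at an adjusted p under 0.05, and 0 fell in edgeR, also at an unadjusted p under 0.05 and in DESeq2. Over all genes tested, 27.7% rose and 25.8% fell at that threshold. A fold change over 1.5 was reached by 20 of the 54 (37%), where 14% of all genes rose and 13.7% fell by as much. In 53 of the 54 every *lon1-2atg5-1* library lay above every *atg5-1* library in normalized counts, an order found in 32.3% of all genes.

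The median log2 fold change of the 54 genes was 0.54, a 1.45-fold difference, while that of all 20157 genes was -0.00034. The middle part of the 54, between the quartiles, lay between 0.45 and 0.66. The smallest value was 0.15 in RPS15aD and the largest 1.46 in RPS9C. Among genes that code for no cytosolic ribosomal protein, the 7628 of similar exonic length had a median of 0.01 and the 860 with at least 100 FPKM a median of 0.06.

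**Figure D1:**
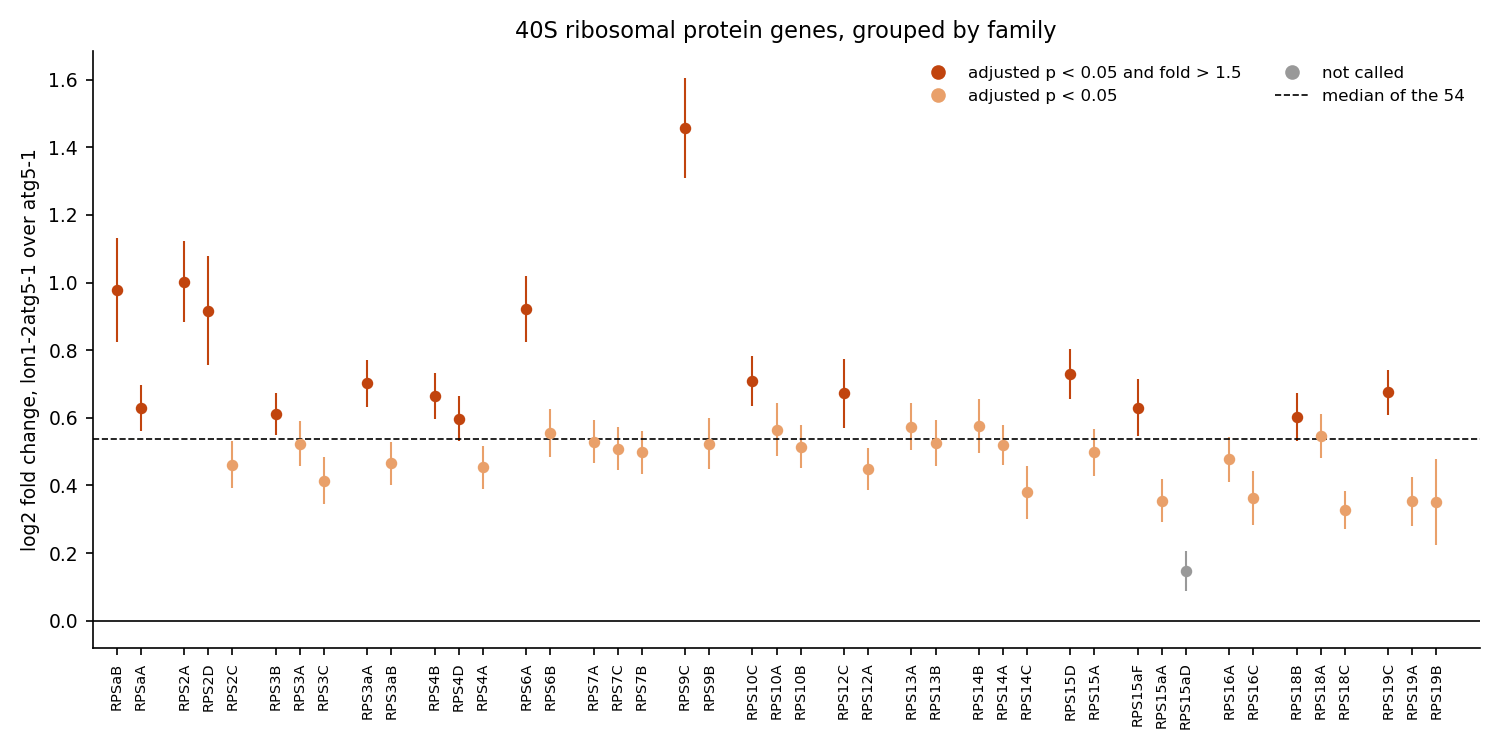
Log2 fold change of *lon1-2atg5-1* over *atg5-1* for 43 of the 54 tested 40S genes, grouped by family, with bars of 1 standard error. All points lie above 0, between 0.15 in RPS15aD and 1.46 in RPS9C, and the dashed line marks the median of 0.54 over the 54.

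Every family was higher when its listed paralogs were summed. In each of the 21 families the lowest *lon1-2atg5-1* library lay above the highest *atg5-1* library. Of single genes tested, 32.3% had this order in normalized counts, and the share among sums of other gene families was not computed. The sums hold the same genes as above and are a description. The ratio of the mean summed FPKM ran from 1.27 to 1.63 with a median of 1.42, RPS6 having the highest. RPS6, the 40S protein that S6 kinases phosphorylate downstream of the TOR kinase, reached 553, 500.3 and 463 FPKM in *lon1-2atg5-1*, against 338, 289 and 305 FPKM in *atg5-1*.

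**Figure D2:**
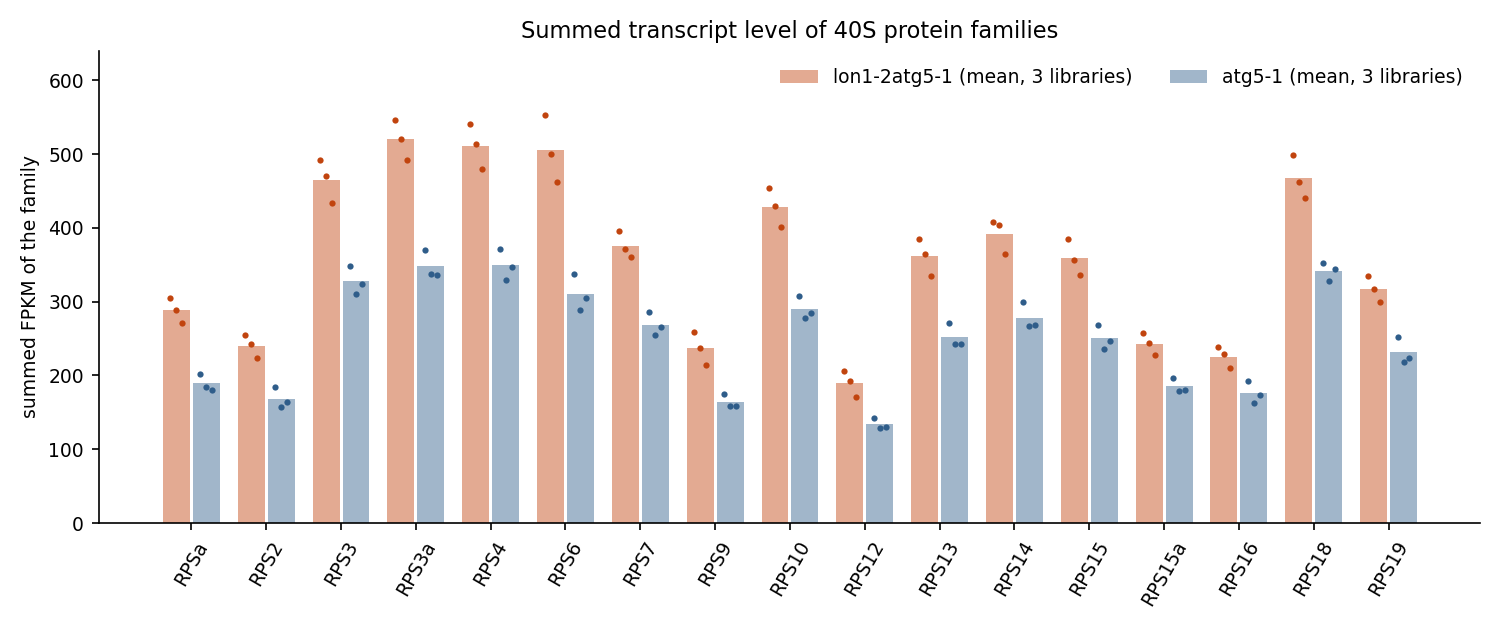
Summed FPKM of the listed paralogs of 17 of the 21 families, with bars for the mean of 3 libraries and dots for single libraries, *lon1-2atg5-1* on the left of each pair. In each family shown the *lon1-2atg5-1* dots lie above the *atg5-1* dots.

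Proteins that line the path of the mRNA into the subunit are RPS2, RPS3 and RPS9. RPS2C (AT2G41840), the main gene of its family, had 203, 200.1 and 189 FPKM in *lon1-2atg5-1*, against 158, 136 and 144 FPKM in *atg5-1*. Its paralog RPS2A (AT1G58380) had 35.6, 30.4 and 25.3 FPKM in *lon1-2atg5-1*, against 17.4, 15.1 and 13.9 FPKM in *atg5-1*, and its log2 fold change was 1.00 ± 0.12 (± 1 standard error here and below, 3 libraries per genotype). RPS2D (AT3G57490) had 15.7, 12.05 and 10.3 FPKM in *lon1-2atg5-1*, against 8.14, 6.16 and 6.21 FPKM in *atg5-1*, with a log2 fold change of 0.92 ± 0.16. Both minor genes thus had larger fold changes than RPS2C, at 0.46 ± 0.07, and in none of these genes did the libraries of the genotypes overlap.

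RPS3 lies where mRNA enters and also has a role in DNA repair in animals and yeast. RPS3B (AT3G53870), its most abundant gene, had 216, 209 and 193 FPKM in *lon1-2atg5-1*, against 144, 132 and 136 FPKM in *atg5-1*, a log2 fold change of 0.61 ± 0.06. The log2 fold changes of RPS3A (AT2G31610) and RPS3C (AT5G35530) were 0.52 ± 0.07 and 0.41 ± 0.07. All of these paralogs rose.

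RPS9 is bound early to the rRNA as the subunit is assembled. Nearly all of its transcript came from RPS9B (AT5G15200), with 245, 227 and 205 FPKM in *lon1-2atg5-1*, against 171, 154 and 154 FPKM in *atg5-1*, and its log2 fold change was 0.52 ± 0.08. RPS9C (AT5G39850) had 13.4, 10.8 and 8.99 FPKM in *lon1-2atg5-1*, against 4.10, 4.28 and 3.90 FPKM in *atg5-1*. In counts, RPS9C had 313, 248 and 224 counts in *lon1-2atg5-1* and 98, 99 and 90 in *atg5-1*, and its log2 fold change of 1.46 ± 0.15 was the largest of the 54 (adjusted p = 0.000131, edgeR's quasi-likelihood test). The 3 *atg5-1* values of RPS9C lay close together, and the lowest *lon1-2atg5-1* value was clear of them.

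At the exit side of the mRNA path and on the platform lie RPSa, RPS3a and RPS14. RPSaA (AT1G72370), whose animal counterpart is also known as a laminin receptor precursor, had 299, 284 and 266 FPKM in *lon1-2atg5-1*, against 199.6, 182 and 178 FPKM in *atg5-1*. Its minor paralog RPSaB (AT3G04770) had 5.74, 5.53 and 4.56 FPKM in *lon1-2atg5-1*, against 2.30, 2.69 and 3.18 FPKM in *atg5-1*. The log2 fold changes were 0.63 ± 0.07 and 0.98 ± 0.15, and in both genes the libraries were clear of each other.

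RPS3aA (AT3G04840) had 346, 319 and 303 FPKM in *lon1-2atg5-1*, against 216, 196 and 194 FPKM in *atg5-1*, a log2 fold change of 0.70 ± 0.07. RPS3aB (AT4G34670) also rose, with a log2 fold change of 0.47 ± 0.06. Of this pair the more abundant gene had the larger fold change.

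RPS14 forms part of the platform. Its main gene RPS14B (AT3G11510) had 195, 183 and 161 FPKM in *lon1-2atg5-1*, against 134, 118 and 115 FPKM in *atg5-1*, a log2 fold change of 0.58 ± 0.08. RPS14A (AT2G36160) and RPS14C (AT3G52580) had log2 fold changes of 0.52 ± 0.06 and 0.38 ± 0.08. All rose, RPS14C the least.

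The body of the subunit includes RPS4, RPS6, RPS7, RPS13 and RPS15a. RPS4B (AT5G07090) had 215, 205 and 195 FPKM in *lon1-2atg5-1*, against 142, 124 and 129.8 FPKM in *atg5-1*. RPS4D (AT5G58420) had 162, 155 and 140.1 FPKM in *lon1-2atg5-1*, against 109, 96.9 and 102 FPKM in *atg5-1*. Log2 fold changes were 0.66 ± 0.07 and 0.60 ± 0.07, with 0.45 ± 0.06 in RPS4A (AT2G17360), and all of them rose.

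RPS6A (AT4G31700) had 282, 258 and 232 FPKM in *lon1-2atg5-1*, against 157, 122 and 136 FPKM in *atg5-1*. RPS6B (AT5G10360) had 271, 242 and 231 FPKM in *lon1-2atg5-1*, against 181, 166 and 169 FPKM in *atg5-1*. The pair were near equal in *lon1-2atg5-1*, whereas RPS6B was the higher in each *atg5-1* library. Log2 fold changes were 0.92 ± 0.10 and 0.55 ± 0.07, and RPS6A was the only gene above 100 FPKM with a value over 0.80.

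RPS7 was the most even family. RPS7C (AT5G16130) had 201, 192 and 191 FPKM in *lon1-2atg5-1*, against 148, 131 and 139 FPKM in *atg5-1*. Its log2 fold change was 0.51 ± 0.06, with 0.53 ± 0.06 for RPS7A (AT1G48830) and 0.50 ± 0.06 for RPS7B (AT3G02560), values that differed by less than their standard errors.

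RPS13B (AT4G00100), known by its pointed-first-leaf mutant, had 196, 190.3 and 173 FPKM in *lon1-2atg5-1*, against 142, 129 and 125 FPKM in *atg5-1*. The log2 fold changes of RPS13B and RPS13A (AT3G60770) were 0.52 ± 0.07 and 0.57 ± 0.07. The paralogs of this family were of about equal level and rose alike within their standard errors.

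Paralogs of RPS15a had unequal fold changes. RPS15aF (AT5G59850) had 121, 113 and 105 FPKM in *lon1-2atg5-1*, against 84.7, 70.2 and 68.3 FPKM in *atg5-1*, a log2 fold change of 0.63 ± 0.08. RPS15aA (AT1G07770) had 76.5, 69.96 and 66.5 FPKM in *lon1-2atg5-1*, against 59.4, 53.7 and 56.6 FPKM in *atg5-1*, a log2 fold change of 0.35 ± 0.06. RPS15aD (AT3G46040) had 60.8, 60.7 and 55.95 FPKM in *lon1-2atg5-1*, against 52.8, 55.1 and 55.4 FPKM in *atg5-1*. Its libraries did not overlap, but its log2 fold change of 0.15 ± 0.06 did not pass the test (adjusted p = 0.0638, edgeR's quasi-likelihood test), and it passed in none of the alternatives except the removal of a trend on GC content, where the adjusted p was 0.0295.

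The head of the subunit, which swivels during translocation, includes RPS10, RPS12, RPS15, RPS16, RPS18 and RPS19. RPS10B (AT5G41520) had 190.1, 197 and 181 FPKM in *lon1-2atg5-1*, against 140.5, 128 and 137 FPKM in *atg5-1*. RPS10C (AT5G52650) had 166, 150.1 and 142 FPKM in *lon1-2atg5-1*, against 104, 91.9 and 90.3 FPKM in *atg5-1*. Log2 fold changes were 0.52 ± 0.06 and 0.71 ± 0.07, with 0.56 ± 0.08 in RPS10A (AT4G25740). RPS10C was thus the member of this family that passed 1.5-fold.

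RPS12A (AT1G15930) had 118, 119 and 108 FPKM in *lon1-2atg5-1*, against 90.8, 84.4 and 82.4 FPKM in *atg5-1*. RPS12C (AT2G32060) had 87.7, 74.1 and 63.6 FPKM in *lon1-2atg5-1*, against 51.6, 44.1 and 48.2 FPKM in *atg5-1*. Both rose, by log2 fold changes of 0.45 ± 0.06 and 0.67 ± 0.10. The lowest *lon1-2atg5-1* library of RPS12C was still above its highest *atg5-1* library.

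RPS15 contacts tRNA near the decoding site. RPS15A (AT1G04270) had 294, 269 and 256 FPKM in *lon1-2atg5-1*, against 209, 184 and 196 FPKM in *atg5-1*. RPS15D (AT5G09510) had 91.8, 88.3 and 80.98 FPKM in *lon1-2atg5-1*, against 58.98, 51.7 and 49.8 FPKM in *atg5-1*. Their log2 fold changes were 0.50 ± 0.07 and 0.73 ± 0.07, again larger in the less abundant gene.

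RPS16 was among the families with smaller changes. RPS16C (AT5G18380) had 189, 181 and 168 FPKM in *lon1-2atg5-1*, against 158, 128 and 141 FPKM in *atg5-1*, a log2 fold change of 0.36 ± 0.08, and RPS16A (AT2G09990) rose with a log2 fold change of 0.48 ± 0.07.

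RPS18 sits at the contact of head and large subunit. RPS18C (AT4G09800) had 183, 176 and 166 FPKM in *lon1-2atg5-1*, against 143, 142 and 141 FPKM in *atg5-1*, a log2 fold change of 0.33 ± 0.06. RPS18B (AT1G34030) had 156, 138 and 129 FPKM in *lon1-2atg5-1*, against 98.5, 89.1 and 96.03 FPKM in *atg5-1*, a log2 fold change of 0.60 ± 0.07. RPS18A (AT1G22780), the POINTED FIRST LEAF gene, rose with a log2 fold change of 0.55 ± 0.07.

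RPS19 is known in humans as a gene of Diamond-Blackfan anaemia. RPS19A (AT3G02080) had 179, 174 and 166 FPKM in *lon1-2atg5-1*, against 153, 129.5 and 132 FPKM in *atg5-1*. RPS19C (AT5G61170) had 148, 134 and 127 FPKM in *lon1-2atg5-1*, against 92.4, 84.1 and 84.6 FPKM in *atg5-1*. Their log2 fold changes were 0.35 ± 0.07 and 0.68 ± 0.07. RPS19B (AT5G15520) was minor, with 7.28, 8.60 and 6.97 FPKM in *lon1-2atg5-1*, against 6.23, 5.32 and 6.71 FPKM in *atg5-1*, and its log2 fold change of 0.35 ± 0.13 passed narrowly (adjusted p = 0.0458, edgeR's quasi-likelihood test). Over the 17 alternatives its adjusted p in edgeR, DESeq2 or limma ran from 0.0266 to 0.151, and it passed in 6 of them. It did not pass without *atg5-1* replicate 1, *atg5-1* replicate 2 or *lon1-2atg5-1* replicate 2, nor in DESeq2, in limma, with library size alone, with 10 counts required in every library or with a length trend removed.

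**Figure D3:**
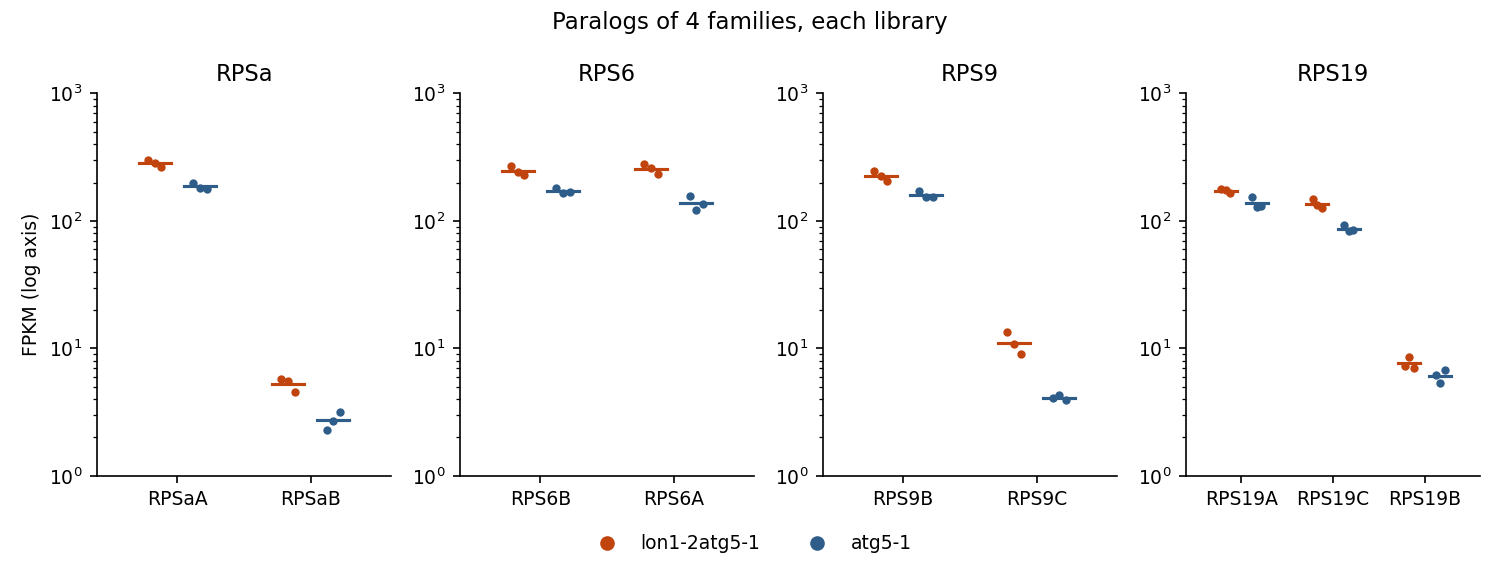
FPKM on a log axis of the paralogs of the RPSa, RPS6, RPS9 and RPS19 families, with a dot for each library and a line at the mean, *lon1-2atg5-1* on the left of each pair. The minor genes RPSaB, RPS9C and RPS19B lie below 20 FPKM, and in every gene shown the *lon1-2atg5-1* dots lie above the *atg5-1* dots.

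No family had paralogs called in opposite directions, so the paralogs differed in the size of the change. RPS9C made up 5.18%, 4.56% and 4.21% of the RPS9 FPKM in *lon1-2atg5-1*, against 2.33%, 2.71% and 2.47% in *atg5-1*. RPS6A made up 51.0%, 51.6% and 50.04% of the RPS6 FPKM in *lon1-2atg5-1*, against 46.5%, 42.4% and 44.5% in *atg5-1*. RPS15aD made up 23.6%, 24.9% and 24.6% of the FPKM of the 4 listed RPS15a genes in *lon1-2atg5-1*, against 26.8%, 30.8% and 30.7% in *atg5-1*. In each of these genes the shares in the genotypes did not overlap.

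Of 33 ratios of a paralog to the most abundant gene of its family, 21 were higher in *lon1-2atg5-1*, and in 22 the libraries did not overlap. Such separation was common among single genes. Of all genes tested, 32.3% had every *lon1-2atg5-1* library above every *atg5-1* library and 30.9% had every one below, in normalized counts. The share among ratios of other genes was not computed. An exact two-sided permutation test of 3 libraries against 3 cannot go below p = 0.1, the value the 22 ratios without overlap reached. Over the 33 ratios the smallest Benjamini-Hochberg adjusted value was 0.15. The shares are therefore given as a description.

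Several of the largest fold changes were in minor genes. The 6 tested genes under 20 FPKM on average (RPSaB, RPS19B, RPS9C and RPS2D among them) had a median log2 fold change of 0.97, although 1 of the 6 did not pass the test, and the 48 others had a median of 0.52. RPS19B, under 20 FPKM, did not have a larger value than its paralogs. Over all 54 genes the rank correlation of log2 fold change with mean FPKM was weak (Spearman's rho -0.17), as a description of genes measured in the same 6 libraries.

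**Figure D4:**
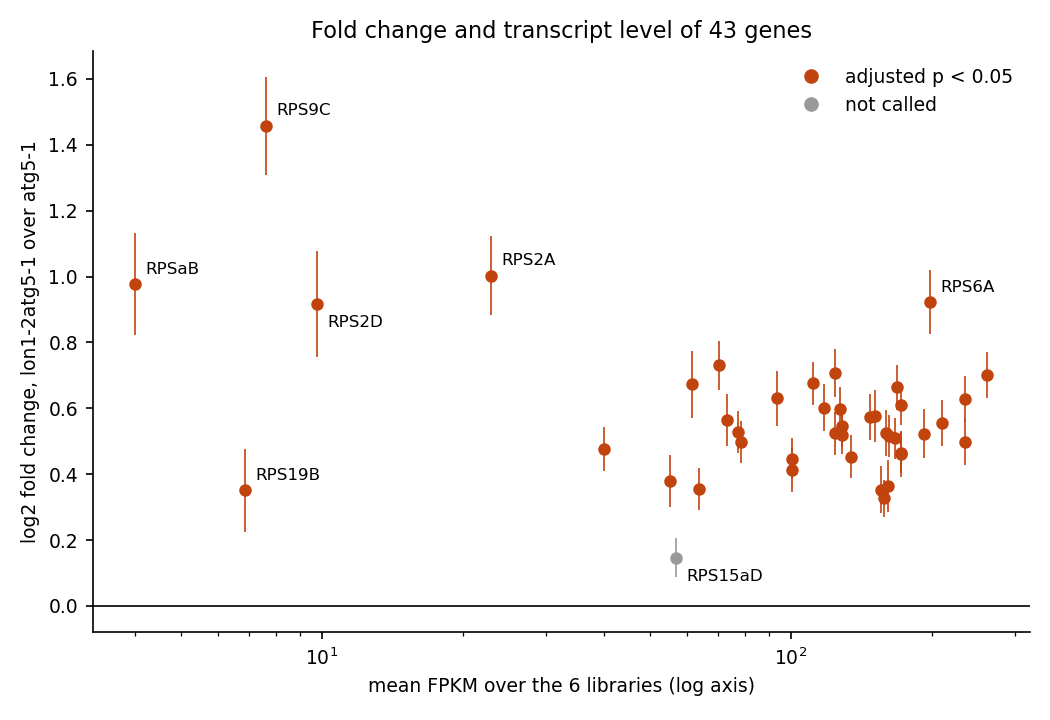
Log2 fold change of *lon1-2atg5-1* over *atg5-1*, with bars of 1 standard error, against the mean FPKM of 43 of the 54 genes on a log axis. Genes under 20 FPKM reach up to 1.46 in RPS9C, while RPS6A, at 0.92, has the highest value of the genes above 100 FPKM.

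The 3 genes not tested were at or near 0 in every library. RPS15aC (AT2G39590) had 0 counts in all 6. RPS15C (AT5G09500) had 0, 2 and 1 counts in *lon1-2atg5-1* and 0 in each *atg5-1* library. RPS2B (AT1G59359) had 1, 0 and 0 counts in *lon1-2atg5-1* and 0, 1 and 0 in *atg5-1*, and its exons are identical over 1288 bases to those of AT1G58684 and over 1223 to those of AT1G58983. Reads from such copies cannot be placed uniquely, so low counts there do not show low expression.

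The same locus bears on RPS2A, whose exons match RPS2B and both copies at 97.4% over 890 bases, and its values are uncertain to that extent. Matches of at least 90% over at least 100 bases also joined RPS16A with RPS16C, and RPS4B with RPS4A and RPS4D. RPS15aA matched 168 bases of its neighbour AT1G07780. The deposited counts do not state whether strand was used, and 11 of the 57 genes overlap a gene on the opposite strand and 6 one on the same strand. Among the 37 tested genes that overlap no other gene, 36 rose, where 27.7% of all genes tested rose, and the median log2 fold change was 0.56. The share among other genes without an overlap was not computed. RPS2A, RPS4A, RPS4B and RPS16A are among the 37, so exon matches remain in this group.

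The libraries of 1 genotype moved together across the genes. In *lon1-2atg5-1*, replicate 1 was the highest in 39 of the 54 genes and replicate 3 the lowest in 44. In *atg5-1*, replicate 1 was the highest in 47. The median deviation of the 54 genes from the *atg5-1* mean was 0.60, 0.53 and 0.48 on the log2 scale in the *lon1-2atg5-1* libraries, and 0.07, -0.04 and -0.03 in the *atg5-1* libraries. The spread between libraries was thus shared by the 40S genes and was smaller than the difference between genotypes. Chi-square per degree of freedom between the counts of 2 libraries, over the genes tested, is larger for less similar pairs. It was 12.5 to 32.8 within *lon1-2atg5-1* and 3.9 to 5.8 within *atg5-1*. Against *atg5-1* libraries it was 110 to 121 for *lon1-2atg5-1* replicate 1 and 64.3 to 67.5 for replicate 3. Over the genes tested, *lon1-2atg5-1* replicate 1 was thus farther from *atg5-1* than replicate 3. These distances include the 40S genes and give no direction. Whether other genes shared the order of the replicates was not tested. The median coefficient of variation of the 40S genes was 4.14% in *lon1-2atg5-1* and 5.01% in *atg5-1*, and that of all genes was 9.79% in *lon1-2atg5-1* and 6.89% in *atg5-1*.

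The promoters were read from TAIR10.1 (RefSeq) to show which letters lie before the start of genes with large and small changes. The telo box was searched as AAACCCTA and site II as TGGGCC or TGGGCT, each on both strands, from 250 bases before to 50 after the annotated start. The telo box was found in 29 of the 57 genes (50.9%), against 6.22% of all genes in the files. Site II was found in 40 (70.2%), against 21.7% of all genes, and both motifs in 22 (38.6%), against 2.2%. In the 250 bases before the start alone, the telo box was found in 10 of the 57 (17.5%), against 4.49% of all genes. In those bases site II was found in 36 (63.2%), against 19.2%, and both motifs in 6 (10.5%), against 1.36%.

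Shown here are the last 150 bases before the start, read 5′ to 3′ along the coding strand, with motif matches on either strand in capitals. RPS9B and RPS9C, and RPS6B and RPS6A, are shown as pairs whose second gene had the larger fold change, and RPS15aD as the gene with the smallest fold change.
RPS9B, chr5:4936430-4936579, minus strand: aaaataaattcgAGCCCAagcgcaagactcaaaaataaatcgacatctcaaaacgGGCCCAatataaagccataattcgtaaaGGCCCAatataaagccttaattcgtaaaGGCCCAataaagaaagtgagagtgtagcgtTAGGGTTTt
RPS9C, chr5:15949760-15949909, plus strand: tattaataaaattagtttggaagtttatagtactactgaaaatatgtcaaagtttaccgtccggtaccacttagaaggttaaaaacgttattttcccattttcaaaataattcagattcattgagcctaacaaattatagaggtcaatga
RPS6B, chr5:3260255-3260404, minus strand: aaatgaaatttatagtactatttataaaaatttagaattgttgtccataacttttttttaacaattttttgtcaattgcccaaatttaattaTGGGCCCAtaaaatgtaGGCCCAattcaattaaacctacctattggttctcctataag
RPS6A, chr4:15347805-15347954, minus strand: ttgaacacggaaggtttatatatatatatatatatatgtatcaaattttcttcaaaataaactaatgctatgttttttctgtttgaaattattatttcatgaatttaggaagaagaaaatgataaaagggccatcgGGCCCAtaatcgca
RPS15aD, chr3:16914375-16914524, plus strand: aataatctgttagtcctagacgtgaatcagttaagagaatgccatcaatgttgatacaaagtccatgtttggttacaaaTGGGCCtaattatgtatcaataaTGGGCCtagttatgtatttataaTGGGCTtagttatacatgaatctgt

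RPS9B held 4 site II matches and a telo box in this stretch, whereas RPS9C held no match. RPS9C had 2 site II matches within the 50 bases after its start. RPS15aD, with the smallest fold change, held 3 site II matches in the stretch shown and a telo box after the start. A match is a description of letters and not a site of binding.

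Genes were grouped by motif in the window from 250 bases before to 50 after the start. Median fold changes were close between the groups, and the largest values lay outside the group with both. The 21 tested genes with both motifs had a median log2 fold change of 0.52, from 0.15 in RPS15aD to 0.66 in RPS4B. The 17 with site II alone had a median of 0.52, up to 1.46 in RPS9C. The 6 with the telo box alone had a median of 0.59, up to 0.96 in a gene that did not pass the test, and the 10 with neither a median of 0.55, up to 1.02. These differences between motif groups were not tested. Genes with both motifs had the highest median level, 156 FPKM, against 58.0 FPKM for genes with neither.

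The other cytosolic 40S genes, of RPS20 to RPS30 and of the scaffold protein RACK1, were also higher. Of 34 genes 33 were tested, and all 33 rose (100%, against 27.7% of all genes tested), with a median log2 fold change of 0.60. RPS20C (AT5G62300) had the smallest value, 0.29 ± 0.06. RPS23A (AT3G09680), counted among the 33, passed the filter only through its *lon1-2atg5-1* libraries. It had 30, 24 and 35 counts in *lon1-2atg5-1* and 6, 1 and 4 in *atg5-1*, too few for a fold. With 10 counts required in every library, 32 genes of this list passed. Of the RPS15 and RPS15a genes outside the 57, RPS15aB (AT2G19720) and RPS15aE (AT4G29430) rose, with log2 fold changes of 0.74 ± 0.14 and 0.58 ± 0.10, and the 3 others, RPS15B, RPS15E and RPS15F, were not tested. The RPS2 copy AT1G58983 rose with a log2 fold change of 0.53 ± 0.15, and the copy AT1G58684 was not tested. Both copies share identical exon sequence with RPS2B, so their reads cannot be placed uniquely and this call is uncertain to that extent.

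Proteins of the large subunit, 118 genes by their annotation, were near the 40S genes in their median. Of 108 tested, 103 rose (95.4%) and 2 fell (1.85%), where 27.7% of all genes tested rose and 25.8% fell. The median log2 fold change of the 108 was 0.53. The 2 that fell were AT5G02440, annotated as L36, with a log2 fold change of -1.30 ± 0.12, and AT1G29970, annotated as L18A-1, with -0.85 ± 0.08. The largest value was in AT3G28500, an acidic 60S protein gene that passed the filter only through its *lon1-2atg5-1* libraries. It had 19, 21 and 14 counts in *lon1-2atg5-1* and 1, 3 and 0 in *atg5-1*, too few for a fold.

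Factors that assemble the 40S subunit rose in 12 of 15 genes (80%) and fell in 0, where 27.7% of all genes tested rose and 25.8% fell. The median log2 fold change of the 15 was 0.69. NUC2 (AT3G18610), a nucleolin of the nucleolus, had the largest value, 1.56 ± 0.34, from 102, 71 and 45 counts in *lon1-2atg5-1* and 19, 25 and 30 in *atg5-1*, and NOF1 (AT1G17690), a nucleolar factor, the smallest that passed, 0.25 ± 0.07. Of 7 genes, those of the TOR complex, of the S6 kinases and of TAP46 (AT5G53000), 0 rose and 4 fell (57.1%), with a median of -0.20. S6K2 (AT3G08720) had the lowest value, -0.44 ± 0.14, and TOR (AT1G50030) the weakest that passed, -0.20 ± 0.06. Without *atg5-1* replicate 2, *atg5-1* replicate 3 or *lon1-2atg5-1* replicate 2, 2 of the 7 passed, and over the alternatives the adjusted p in edgeR, DESeq2 or limma reached 0.0956 for S6K2, 0.117 for TOR and 0.0579 for NOF1. TOR lost its call also without *atg5-1* replicate 1, and NOF1 without *atg5-1* replicate 3 and in limma with either pseudocount.

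Chosen nuclear small-subunit genes of the organelle ribosomes, not their whole sets, were set beside the cytosolic ones. The 5 listed genes of the mitochondrial small subunit all rose (100%, against 27.7% of all genes tested), with a median log2 fold change of 0.58. Values ran from mtRPS19 (AT5G47320) at 0.53 ± 0.07 to mtRPS10 (AT3G22300) at 0.99 ± 0.13. Other genes of that subunit were not examined. Of 9 listed genes of the plastid small subunit 4 rose (44.4%) and 0 fell, where 27.7% of all genes tested rose and 25.8% fell. The median of the 9 was 0.12. PRPS20 (AT3G15190), at 0.22 ± 0.07, had the smallest log2 fold change among those that passed. Without any 1 of the 3 *atg5-1* libraries, or without *lon1-2atg5-1* replicate 2, 2 of the 9 passed, and the adjusted p of PRPS20 reached 0.113 over the alternatives in edgeR, DESeq2 or limma. Whether the plastid list differed from the cytosolic 40S genes was not tested.

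**Figure D5:**
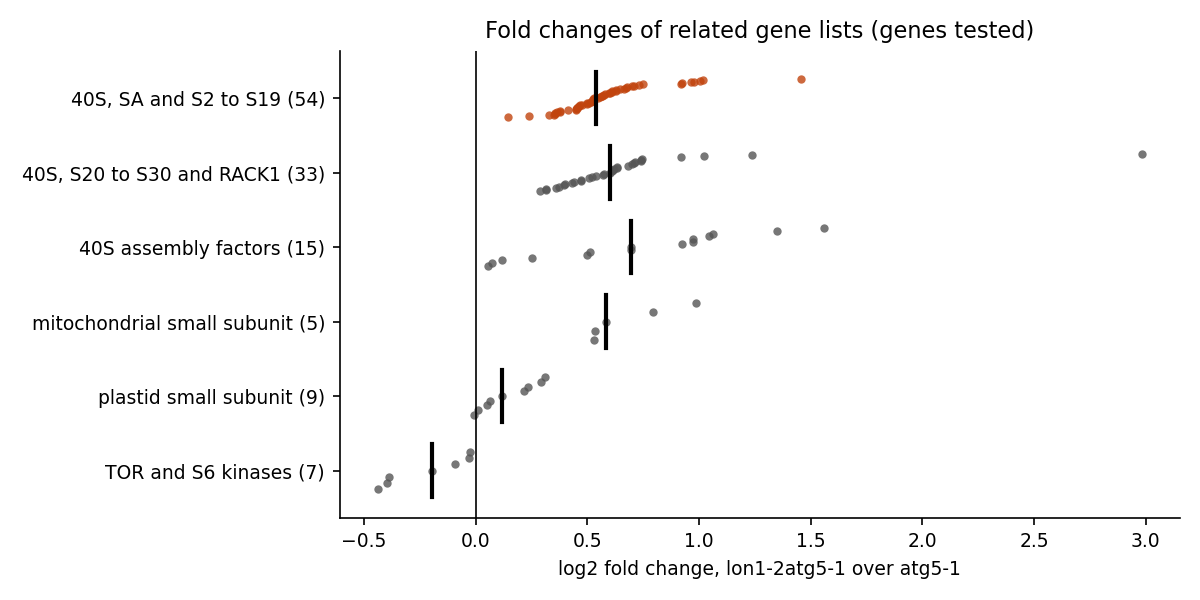
Log2 fold change of *lon1-2atg5-1* over *atg5-1* for the tested genes of 6 lists, a dot for each gene and a bar at the median, with the number of genes tested in parentheses. The medians are 0.54 and 0.60 for both 40S lists, 0.69 for assembly factors, 0.58 and 0.12 for mitochondrial and plastid small-subunit genes, and -0.20 for the TOR list.

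Markers of cell types present in a seedling were counted beside these results. Of 6 markers of dividing cells, in which ribosomal protein genes are highly expressed, 2 (33.3%) rose and 0 fell, where 27.7% of all genes tested rose. PCNA1 (AT1G07370) had a log2 fold change of 1.11 ± 0.11 and CYCB1;1 (AT4G37490) one of 0.80 ± 0.17, while KNOLLE, CDKB1;1, CDKB2;1 and CYCB1;2 did not pass. Their summed level was 38.5 to 46.6 FPKM in *lon1-2atg5-1* and 32.3 to 37.5 FPKM in *atg5-1*.

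Of 6 root markers 4 fell (66.7%) and 1 rose (16.7%), where 25.8% of all genes tested fell and 27.7% rose. The 6 summed to 17.6 to 22.96 FPKM in *lon1-2atg5-1* and 49.9 to 62.8 FPKM in *atg5-1*. COBL9 (AT5G49270), of root hairs, had the lowest log2 fold change, -1.82 ± 0.17. NRT2.1 (AT1G08090), a nitrate transporter, was the gene that rose, and it passed the filter only through its *lon1-2atg5-1* libraries. It had 25, 25 and 38 counts in *lon1-2atg5-1* and 3, 3 and 1 in *atg5-1*, too few for a fold. Of 5 green shoot markers 1 rose and 1 fell (20% each), shares below those of all genes tested. RBCS1A (AT1G67090) rose with a log2 fold change of 0.34 ± 0.12, and LHCB1.1 (AT1G29920) fell with -0.36 ± 0.10. The 5 summed to 23787 to 27326 FPKM in *lon1-2atg5-1* and 23162 to 23388 FPKM in *atg5-1*. In edgeR both green shoot calls were lost without *atg5-1* replicate 3, with adjusted p values of 0.11 for RBCS1A and 0.0614 for LHCB1.1, and of the libraries left out in turn RBCS1A kept its call only without *lon1-2atg5-1* replicate 1. With the GC trend removed RBCS1A also lost its call, and 2 of the 5 green shoot markers were called, both lower. None of the 17 markers was at 0 in a library. The part of a different share of cell types in the difference of the 40S genes was not tested.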

How the data were processed

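Total RNA of whole seedlings was made into stranded mRNA libraries and sequenced as read pairs. Per the submitters' notes and the methods, the authors trimmed reads with Trimmomatic, aligned them with HISAT2 to TAIR10, counted reads per gene with HTSeq and took FPKM from Cufflinks. The deposited counts are raw reads per gene, without normalization. The deposited FPKM values equal the count over gene length and library total, with lengths equal to the exonic lengths of TAIR10.1 for 23819 of 23819 genes with a count, so TAIR10.1 (RefSeq) was used for coordinates and promoters. Handling of reads with several alignments and of strand is not given in the sources used here.

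Libraries were grouped by their titles. Counts were filtered with filterByExpr, scaled with TMM and tested over all genes in edgeR 4.0.16 (R 4.3.3) by quasi-likelihood, with Benjamini-Hochberg adjustment. Values after ± are standard errors of the log2 fold change, derived as its size over the square root of F, with 3 libraries per genotype. The members and lists were chosen with earlier results of these data known. Genes were named with all libraries where they passed an adjusted p of 0.05 and a fold change of 1.5, were among the 5 highest or 5 lowest that passed 0.05, or led their family in FPKM, and those not tested or not called were added. Some of these genes and families are counted in the totals but not reported here by name. Of the other lists, the highest and lowest gene that passed were named. Alternatives were DESeq2 1.42.0, library size alone, TMM without 40S genes, no filter, 10 counts in every library, a replicate block, limma 3.58.1 on log2(FPKM + 1) and log2(FPKM + 0.1), a fold change of 2 and each library left out. Removal of trends on length or GC content was added after seeing the data. Exons were compared with BLAST 2.17.0. On simulated counts of 20024 genes for this comparison, edgeR recovered 190 of 197 changed genes with 9 false calls. For these counts 200 changed genes were drawn, at a coefficient of variation of 0.1. Recovery with as large a share of genes changed as was called in the measured libraries was not tested.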

Additional observations from a re-analysis of the deposited data

How the results depend on the processing

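The number of 40S genes that passed an adjusted p under 0.05, 52 of 54, lay between 51 and 53 under the 17 alternatives, with 0 lower in each, and between 51 and 52 with each library left out. The number that also passed 1.5-fold, 20, was 15 with a length trend removed, 16 with library size alone, limma or a GC trend removed, and 17 to 25 with each library left out. A fold change of 2 left 3. The median log2 fold change, 0.54, lay between 0.50 and 0.57, and between 0.51 and 0.57 with each library left out, while the median of all genes stayed between -0.03 and 0.01. Replicate numbers did not pair the libraries (correlations of same-numbered deviations -0.04, -0.11 and -0.01), and with the replicate block 51 of the 40S genes passed, 20 of them by 1.5-fold, with a median of 0.54. RPS19B, TOR and PRPS20 did not pass with the block. The block with the length trend removed gave 51, 15 and 0.50. Of 918 results of single 40S genes under alternatives, 904 kept direction and call, 0 reversed, 12 lost the call and 2 gained it, in 4 genes, RPS19B and RPS15aD among them.

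Over libraries left out, the genes that passed numbered 102 to 106 for the 60S list, 33 for RPS20 to RPS30 and RACK1 at both ends, 11 to 12 for assembly factors, 2 to 4 for the TOR list, 2 to 5 for the plastid list, 5 for the mitochondrial list, 5 to 6 for root markers, 2 for dividing cells, 0 to 2 for green shoot markers, 2 for the other RPS15a genes and 0 to 1 for the RPS2 copies, where omission of *lon1-2atg5-1* replicate 1, *atg5-1* replicate 2 or *atg5-1* replicate 3 ended the call of AT1G58983. The plastid count was 2 with the block, with the length trend removed and with both. The green shoot count was 1 with limma on either pseudocount, with the block and with the block and the length trend removed. Limma on log2(FPKM + 1) gave 0.68 for NUC2 on that scale, where a pseudocount lowers the fold of genes with low FPKM. The causes of the other changes were not tested. Counts were few for RPS23A, AT3G28500 and NRT2.1, and few or 0 for the 3 genes not tested. With 3 libraries per genotype the paralog ratios could not pass an exact test.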
